A study of Mus musculus and Homo sapiens with 12 samples.

Results

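The transcripts that carry glucose through its uptake and the early steps of glycolysis were followed in PFKFB4-knockout and wild-type breast cancer cells. The 8 genes were chosen by name, with earlier results of these data known. They were the glucose transporters SLC2A1 and SLC2A3 and the hexokinases HK1 and HK2. The others were glucose-6-phosphate isomerase GPI (Gpi1 in mouse) and the phosphofructokinase-1 isoforms PFKL, PFKM and PFKP. All 8 were found among the 54331 gene identifiers of the mouse table and among the 60233 of the human table, and all 8 passed the filter on low values in both lines. The groups were PFKFB4-knockout EMT6, wild-type EMT6, PFKFB4-knockout MDA-MB-231 and wild-type MDA-MB-231, with 3 libraries each and 12 in all. EMT6 cells derive from a mammary tumour of the mouse, and MDA-MB-231 cells from a human breast adenocarcinoma. Both grew in high-glucose DMEM with serum and antibiotics, which all 4 groups shared. The labels give neither the edit in PFKFB4 nor whether a knockout is 1 clone, and call the libraries biological replicates without saying whether these were separate cultures, so the p-values speak only for the spread among the libraries at hand, which may be technical.

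SLC2A1 and SLC2A3 are facilitative transporters that let glucose cross the plasma membrane down its gradient. Hexokinases phosphorylate the incoming sugar and so trap it in the cell, and GPI turns the glucose phosphate into the fructose phosphate. Phosphofructokinase-1, a tetramer of liver-type (PFKL), muscle-type (PFKM) and platelet-type (PFKP) subunits, then adds another phosphate in the main committed step of glycolysis. The PFKFB enzymes, PFKFB4 among them, make and break down a fructose bisphosphate that activates phosphofructokinase-1. Many tumours have high SLC2A1 and HK2, and both genes are known targets of the hypoxia-inducible factor HIF-1.

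Values were read as TPM, a unit of transcript abundance corrected for gene length that sums to 1000000 in each library. A level of 1 TPM was reached by 11871 to 12015 genes in EMT6 knockout libraries against 12350 to 12426 in EMT6 wild type, and 13038 to 13338 in MDA-MB-231 knockout libraries against 13423 to 13593 in MDA-MB-231 wild type. TPM keeps no read depth, so how many reads stand behind each value is unknown. Pfkfb4 itself was at 6.96, 6.87 and 8.24 TPM in EMT6 knockout libraries and 10.2, 10.5 and 10.4 TPM in EMT6 wild-type libraries (log2 fold change -0.45 ± 0.08, SE, limma adjusted p = 0.00487). The fall missed the threshold once libraries were scaled by their median ratio (-0.22, adjusted p = 0.0699). Nor was Pfkfb4 called lower after removal of a trend on exon length. Human PFKFB4 was not analysed here. Of 6 mammary epithelial markers in EMT6, Krt8, Krt18 and Krt14 passed the filter, and Epcam, Cdh1 and Krt5 stayed under 1 TPM in every library. Krt8, the most abundant, was called higher, at 535 ± 11.9 TPM in the knockout and 482 ± 22.1 TPM in wild type (SD, n = 3 each; limma adjusted p = 0.0302). Krt18 was called lower, at 15.5 ± 1.12 TPM in the knockout and 36.3 ± 3.79 TPM in wild type, as was Krt14, at 3.94 ± 0.275 TPM in the knockout and 36.5 ± 1.253 TPM in wild type. The 5 leukocyte markers summed to 0.0237 to 0.282 TPM in knockout libraries and 0.0359 to 0.114 TPM in wild type, and the 3 endothelial markers to 0.0142 to 0.0415 TPM in knockout libraries and 0.0574 to 0.0837 TPM in wild type. Of 4 mesenchymal markers, Vim was called higher and Fn1 and Zeb1 lower. The part of these markers in the results below was not tested. Markers of MDA-MB-231 were not analysed here.

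Gpi1 was by far the most abundant of the 8 transcripts in EMT6, whereas PFKP led in MDA-MB-231. In EMT6 knockout cells, mean TPM ran from Gpi1 (323) through Pfkp (41.4), Pfkl (39.9), Hk1 (32.4), Slc2a1 (26.8), Hk2 (18.1) and Pfkm (17.03) to Slc2a3 (0.772), with overlapping libraries between Pfkp and Pfkl and between Hk2 and Pfkm. In EMT6 wild type it ran from Gpi1 (313) through Pfkl (60.6), Pfkp (51.6), Slc2a1 (41.1), Hk1 (37.9), Pfkm (20.6) and Hk2 (14.1) to Slc2a3 (1.73), and no neighbours in that order overlapped. Slc2a1 thus stood below Hk1 in the knockout and above it in wild type. In MDA-MB-231 knockout cells the order was PFKP (194), HK1 (163), GPI (102), SLC2A1 (36.5), PFKM (34.1), PFKL (13.4), HK2 (13.01) and SLC2A3 (3.36), with overlaps between SLC2A1 and PFKM and between PFKL and HK2. In MDA-MB-231 wild type it was PFKP (219.8), GPI (122), HK1 (104), SLC2A1 (40.8), PFKM (27.1), PFKL (19.7), HK2 (12.1) and SLC2A3 (6.47), with no overlap between neighbours. HK1 thus stood above GPI in the knockout and below it in wild type. The 2 tables were normalized separately, so levels are not compared between the lines.

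**Figure D1:**
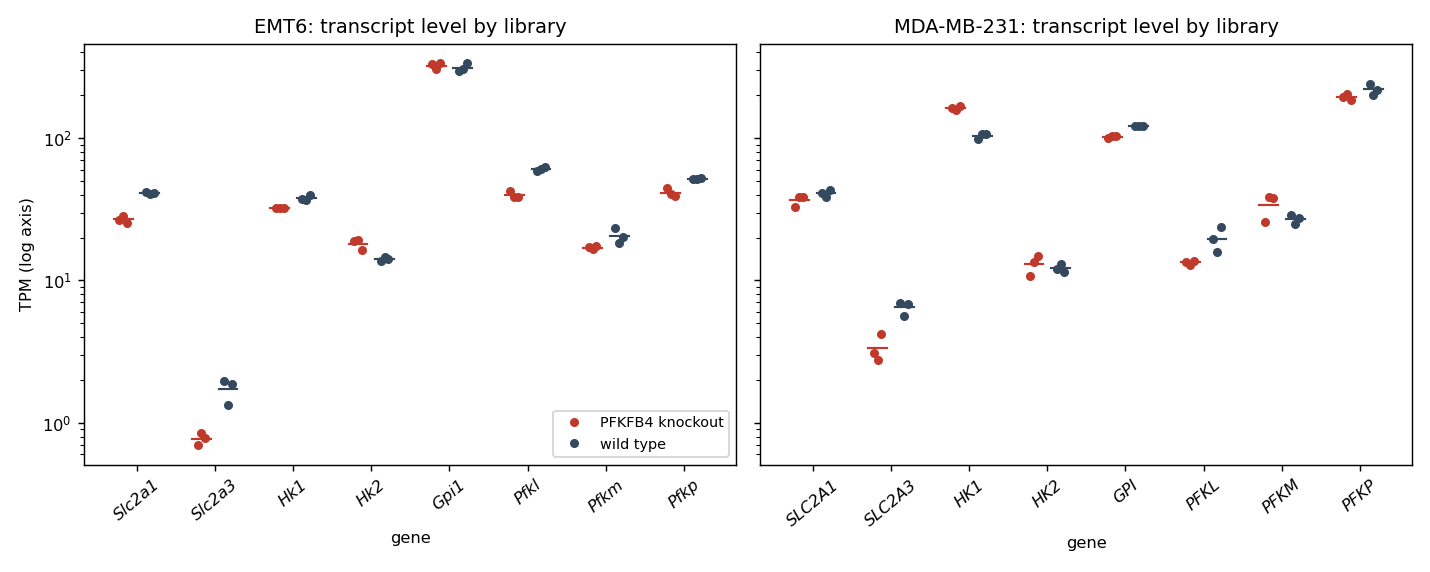
TPM (log axis) of the 8 genes in every library of EMT6 (left) and MDA-MB-231 (right); red points are PFKFB4-knockout libraries, dark points wild-type libraries, and short lines group means. In EMT6 the red points of Slc2a1 (25.4 to 28.3 TPM) lie below the dark ones (40.8 to 41.6 TPM), and in MDA-MB-231 the red points of HK1 (157 to 169 TPM) lie above the dark ones (98.03 to 107 TPM).

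In EMT6 knockout cells both glucose transporters and the liver-type phosphofructokinase fell relative to wild type, while Hk2 rose. Over all 8 genes, limma on log2(TPM + 1) with Benjamini-Hochberg adjustment over 13499 tested genes called 1 higher and 5 lower at an adjusted p of 0.05, where 14.5% of all tested genes were called higher and 42.3% lower (56.7% in either direction). Groups did not overlap for 1 gene that was higher and 6 that were lower, beside 17.9% and 48.3% of all tested genes (66.2% in either direction). The count of lower genes in this set is therefore read beside a table in which falls were common. The median log2 fold change was -0.28 over the 8 genes and -0.21 over all tested genes. Scaling libraries by the median of their gene-wise ratios to the geometric mean library moved the median of all tested genes to -0.01 and that of the 8 genes to -0.05, and then called 2 of them higher and 3 lower, beside 27.0% and 24.8% of all tested genes. Changes of the 8 genes are therefore given on both scales. In bulk RNA, fewer cells of a kind and less RNA per cell cannot be told apart.

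Slc2a1 (ENSMUSG00000028645, chromosome 4, 119108711 to 119137983 on GRCm38), the main basal glucose transporter, stood at 26.8, 28.3 and 25.4 TPM in EMT6 knockout libraries and at 41.6, 40.8 and 41.0 TPM in EMT6 wild-type libraries. The groups did not overlap, and the wild-type libraries lay within 1 TPM of each other. Mean TPM fell by 34.7% (log2 fold change -0.60 ± 0.05, SE; limma adjusted p = 0.000487). On the median-ratio scale the log2 fold change was -0.36 (adjusted p = 0.0017). Slc2a3 (ENSMUSG00000003153, chromosome 6, 122727809 to 122801640), a high-affinity transporter prominent in neurons, was scarce, at 0.693, 0.846 and 0.778 TPM in the knockout and 1.98, 1.33 and 1.89 TPM in wild type. It was lower in all 3 knockout libraries (-0.62 ± 0.11, adjusted p = 0.00524; median-ratio scale -0.48, adjusted p = 0.0106), and its call was lost (adjusted p = 0.0634) once the trend on exon length had been taken out. Of the other 11 hexose transporters listed for mouse, 10 stayed under 1 TPM in every library and 3 passed the filter. Slc2a6 alone was called, lower at 0.495 ± 0.0734 TPM in the knockout and 0.861 ± 0.0885 TPM in wild type (SD, n = 3 each, limma adjusted p = 0.0119). Among all tested genes, 42.3% were called lower in TPM. Of the Slc2a6 knockout libraries, only replicate 1 reached the filter of 0.5 TPM. The wild-type libraries met the filter by themselves, so the call is not read as a finding on Slc2a6. With the length trend removed, 0 of these other transporters were called lower, beside 3588 of 13487 tested genes.

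Hk2 rose in EMT6 on both scales, whereas the fall of Hk1 in TPM did not hold on the median-ratio scale. Hk2 (ENSMUSG00000000628, chromosome 6, 82725025 to 82774454), the inducible isoform that binds the outer mitochondrial membrane, stood at 18.8, 19.2 and 16.3 TPM in knockout libraries and 13.7, 14.6 and 14.1 TPM in wild-type libraries. All 3 knockout libraries were higher than all 3 of wild type, with knockout replicate 3 the nearest to them. The log2 fold change of Hk2 came to 0.34 ± 0.07 (SE; limma adjusted p = 0.0105), and to 0.57 on the median-ratio scale (adjusted p = 0.0018). Hk1 (ENSMUSG00000037012, chromosome 10, 62268855 to 62379908), the isoform found in most tissues, stood at 32.3, 32.4 and 32.5 TPM in the knockout and 37.1, 36.6 and 40.1 TPM in wild type. It was called lower in TPM (-0.22 ± 0.05, adjusted p = 0.0112), but stood only -0.01 from the median of all tested genes, and its sign turned on the median-ratio scale (0.02, adjusted p = 0.734) and after removal of the length trend (0.17, adjusted p = 0.0741). Hk3 and Hkdc1, of the same family, stayed under 1 TPM in every library. Adpgk, which phosphorylates glucose with ADP, was at 10.4 ± 0.368 TPM in the knockout and 11.1 ± 0.704 TPM in wild type (adjusted p = 0.304). G6pc3, a glucose phosphatase that opposes hexokinase, fell to 10.2 ± 0.29 TPM in the knockout, against 16.6 ± 2.202 TPM in wild type (-0.64, limma adjusted p = 0.00308).

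The start-site regions of Slc2a1 and Hk2 are shown because these genes moved in opposite directions in EMT6. Of the 8 mouse genes, 7 had RefSeq promoter entries on GRCm38.p6 (250 bases before the start and 50 after it). Capitals mark ACGTG or its reverse complement CACGT, a form of the core of the element bound by hypoxia-inducible factors. Other forms of that core were not searched for and are not marked. The Slc2a1 entry is chr4:119108495-119108794, plus strand, and the Hk2 entry chr6:82774405-82774704, minus strand.
Slc2a1: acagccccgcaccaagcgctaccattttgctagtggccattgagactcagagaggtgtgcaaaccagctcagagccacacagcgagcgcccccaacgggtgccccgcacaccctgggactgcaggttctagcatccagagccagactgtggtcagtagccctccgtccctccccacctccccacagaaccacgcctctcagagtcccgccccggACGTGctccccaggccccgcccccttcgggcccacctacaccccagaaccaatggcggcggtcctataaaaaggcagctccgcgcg
Hk2: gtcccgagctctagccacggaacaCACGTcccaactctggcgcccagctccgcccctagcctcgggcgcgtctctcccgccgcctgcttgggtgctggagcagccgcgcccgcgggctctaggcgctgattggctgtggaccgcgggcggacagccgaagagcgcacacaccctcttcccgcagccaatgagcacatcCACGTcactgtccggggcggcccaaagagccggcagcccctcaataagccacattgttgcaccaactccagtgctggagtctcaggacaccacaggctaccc
Slc2a1 had 1 match, beginning at base -36 from the start, and Hk2 had 2, beginning at -226 and -52. ACGTG was found on either strand in 19.6% of 32851 RefSeq promoters of the same length, and CACGTG, which contains it, in 7.15%. Among the 7 genes, which had 11 entries in all, 4 (Slc2a1, Hk1, Hk2 and Pfkm) held ACGTG in at least 1 entry and 1 (Pfkm) held CACGTG. These are counts of genes, whereas the percentages are of single promoters, so they are not set against each other. Such matches describe the letters only.

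Gpi1 (ENSMUSG00000036427, chromosome 7, 34201330 to 34230336) showed no called change in TPM, at 331, 304 and 335 TPM in EMT6 knockout libraries and 295, 306 and 336 TPM in wild type. The groups overlapped. Its log2 fold change was 0.05 (95% confidence interval -0.11 to 0.21; limma adjusted p = 0.551), and it was called higher on the median-ratio scale (0.30, adjusted p = 0.0189) and after removal of the length trend (0.38, adjusted p = 0.0142).

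Pfkl was the phosphofructokinase-1 gene that fell most in EMT6. Pfkl (ENSMUSG00000020277, chromosome 10, 77986947 to 78010083) stood at 42.4, 38.6 and 38.7 TPM in knockout libraries and 58.4, 60.7 and 62.7 TPM in wild type, with no overlap. Mean TPM fell by 34.2% (log2 fold change -0.59 ± 0.05, SE; limma adjusted p = 0.000606), and the median-ratio scale gave -0.35 (adjusted p = 0.00601). Pfkp (ENSMUSG00000021196, chromosome 13, 6579768 to 6648777) stood at 44.9, 40.2 and 39.2 TPM in the knockout and 51.3, 51.3 and 52.2 TPM in wild type. It was called lower in TPM (-0.31 ± 0.06, adjusted p = 0.00637) but not on the median-ratio scale (-0.07, adjusted p = 0.418), and its sign turned after removal of the length trend (0.15, adjusted p = 0.186). Exons of Pfkp overlap those of Pitrm1 on the opposite strand over 748 nt of 13401 nt. The strand setting of the counting is not given in the sources used here, so reads there cannot be assigned. Opposite-strand exon overlaps were 105 nt for Slc2a1, 157 nt for Hk1, 18 nt for Pfkm and 741 nt for Gpi1. On the same strand, exons of Pfkm overlap those of Gm26513 over 341 nt of 3340 nt, and Gm26513 averaged 0.0683 TPM. Pfkm (ENSMUSG00000033065, chromosome 15, 98092589 to 98132451) stood at 17.1, 16.5 and 17.5 TPM in the knockout and 23.3, 18.4 and 20.1 TPM in wild type. The libraries did not overlap, yet the adjusted p was 0.051 (log2 fold change -0.26, 95% confidence interval -0.48 to -0.04). The change was -0.02 on the median-ratio scale (adjusted p = 0.847) and -0.10 after removal of the length trend (adjusted p = 0.39), and omitting wild-type replicate 2 brought Pfkm past the threshold (adjusted p = 0.0257). Of 4 skeletal muscle markers, Myod1 was listed at 0 throughout, and their summed level was 0.194 to 0.253 TPM in knockout libraries and 2.17 to 3.14 TPM in wild type. Acta1 averaged 0.0864 TPM in the knockout and 2.77 TPM in wild type, whereas Myh1 averaged 0.135 TPM in the knockout and 0.0177 TPM in wild type. The part of those transcripts in the Pfkm values was not tested.

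In MDA-MB-231, HK1 rose and SLC2A3 and GPI fell, and the other 5 genes were not called. Of these calls, that of HK1 alone held under all 12 alternatives, while SLC2A3 lost its call in 3 and GPI in 9. Limma called 1 gene of 8 higher and 2 lower, beside 7.97% and 12.1% of the 15299 tested human genes (20.0% in either direction). Groups did not overlap for 1 gene that was higher and 3 that were lower, beside 17.2% and 22.9% of all tested genes (40.1% in either direction). The median log2 fold change was -0.17 over the 8 genes and -0.04 over all tested genes. On the median-ratio scale, 1 was called higher and 1 lower, beside 11.3% and 10.8% of all tested genes.

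HK1 (ENSG00000156515) stood at 163, 157 and 169 TPM in MDA-MB-231 knockout libraries and 98.03, 106.5 and 107 TPM in wild-type libraries. Every knockout library was above every wild-type one. Mean TPM was 1.57 times that of wild type (log2 fold change 0.64 ± 0.07, SE; limma adjusted p = 0.00194; median-ratio scale 0.71, adjusted p = 0.00315), and 95.6% of tested genes had a lower log2 fold change. HK2 (ENSG00000159399) stood at 10.7, 13.5 and 14.8 TPM in the knockout and 12.01, 12.97 and 11.4 TPM in wild type. The groups overlapped, and the log2 fold change was 0.08 (95% confidence interval -0.24 to 0.40; adjusted p = 0.699; median-ratio scale 0.14, adjusted p = 0.368).

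SLC2A3 (ENSG00000059804) stood at 3.09, 2.75 and 4.23 TPM in MDA-MB-231 knockout libraries and 6.99, 5.6 and 6.83 TPM in wild type, with no overlap. Its mean TPM fell by 48.1% (log2 fold change -0.79 ± 0.16, SE; limma adjusted p = 0.0188; median-ratio scale -0.73, adjusted p = 0.0158). The adjusted p was 0.0753 without wild-type replicate 1, 0.0622 without wild-type replicate 3 and 0.0668 without knockout replicate 2. Human SLC2A3 has a close paralogue, SLC2A14, with which reads could be shared and which was not analysed here. SLC2A1 (ENSG00000117394) stood at 32.8, 38.4 and 38.3 TPM in the knockout and 40.9, 38.3 and 43.3 TPM in wild type. Knockout replicate 1 lay clear of the wild-type range, replicate 3 lay below it by less than 0.1 TPM and replicate 2 inside it. The log2 fold change of -0.16 (95% confidence interval -0.38 to 0.07) for SLC2A1 had an adjusted p of 0.282 by limma, and it was -0.10 on the median-ratio scale (adjusted p = 0.429).

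GPI (ENSG00000105220) stood at 100.3, 103 and 103 TPM in MDA-MB-231 knockout libraries and 121, 122 and 123 TPM in wild type. The groups did not overlap, and the log2 fold change of GPI came to -0.25 ± 0.06 (SE; limma adjusted p = 0.0267). That call was lost on the median-ratio scale (-0.19, adjusted p = 0.0921) and when any of the 6 libraries was left out (adjusted p = 0.0521 to 0.119). It was also lost in limma without a trend (adjusted p = 0.0613) and with a replicate block (adjusted p = 0.119). PFKL (ENSG00000141959) stood at 13.5, 12.9 and 13.8 TPM in the knockout and 19.5, 15.8 and 23.7 TPM in wild type. No libraries overlapped, but the wild-type spread was wide and the adjusted p was 0.057 (-0.51, 95% confidence interval -0.86 to -0.15; median-ratio scale -0.45, adjusted p = 0.0871), or 0.0245 without wild-type replicate 2. PFKM (ENSG00000152556) stood at 25.6, 38.3 and 38.2 TPM in the knockout and 28.8, 24.8 and 27.5 TPM in wild type. Knockout replicate 1 lay inside the wild-type range while the other 2 lay above it (0.30 ± 0.17, adjusted p = 0.258; median-ratio scale 0.36, adjusted p = 0.105), and without it PFKM was called higher (0.49, adjusted p = 0.0255). PFKP (ENSG00000067057) stood at 193, 203 and 186 TPM in the knockout and 241, 202 and 216 TPM in wild type, which overlapped (-0.17, 95% confidence interval -0.37 to 0.03; adjusted p = 0.196; median-ratio scale -0.11, adjusted p = 0.423).

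**Figure D2:**
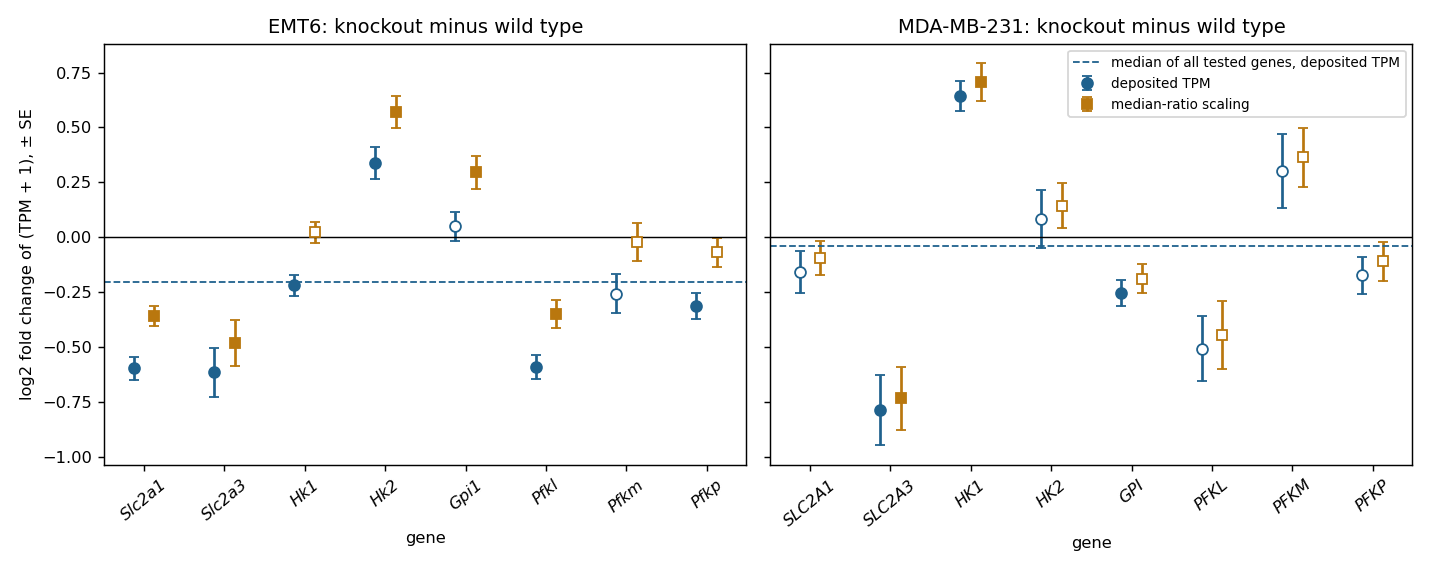
Log2 fold change of TPM + 1, knockout minus wild type, with SE, for the 8 genes in EMT6 (left) and MDA-MB-231 (right); circles are deposited TPM, squares median-ratio scaled libraries, filled symbols have an adjusted p under 0.05, and the dashed line is the median of all tested genes. In EMT6 the dashed line lies at -0.21 and the squares sit above the circles, with Hk1 at -0.22 (circle) and 0.02 (square), while in MDA-MB-231 both symbols of HK1 are high, at 0.64 and 0.71.

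The balance between isoforms within a library is unaffected by a common scale factor, and was compared as shares of summed TPM with a two-sided exact permutation test over libraries. A trend on exon length need not cancel, since isoforms differ in exon length (Pfkp 13401 nt, Pfkl 6675 nt, Slc2a3 7245 nt, Slc2a1 3506 nt). Its removal moved the log2 fold change of Slc2a3 from -0.62 to -0.26 and that of Slc2a1 from -0.60 to -0.42. No share was recomputed with that trend removed. With 3 libraries against 3, the smallest p this test can give is 0.1, so no share can pass 0.05. Hk2 made up 36.9, 37.2 and 33.4% of Hk1 + Hk2 transcripts in EMT6 knockout libraries and 26.9, 28.5 and 25.98% in EMT6 wild type. This is a difference of 8.7 percentage points between means of 35.8 ± 2.08% in the knockout and 27.1 ± 1.26% in wild type (SD, n = 3 each), with no overlap (exact p = 0.1). In MDA-MB-231 the HK2 share was 6.19, 7.94 and 8.05% in the knockout and 10.9, 10.9 and 9.65% in wild type, which is -3.08 percentage points and again without overlap (exact p = 0.1). The share of HK2 was thus higher in the EMT6 knockout and lower in the MDA-MB-231 knockout. Summed hexokinase TPM was 50.6 ± 1.49 in the EMT6 knockout and 52.04 ± 1.88 in EMT6 wild type, which overlapped (exact p = 0.6; the log2 ratio of means turned from -0.04 to 0.21 under median-ratio scaling). It was 175.7 ± 7.26 in the MDA-MB-231 knockout and 116 ± 5.2 in MDA-MB-231 wild type, which did not (exact p = 0.1).

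The share of the liver-type subunit in phosphofructokinase-1 transcripts was lower in every knockout library than in every wild-type library of its line. Pfkl made up 40.6, 40.5 and 40.6% of the 3 transcripts in EMT6 knockout libraries and 43.9, 46.5 and 46.4% in EMT6 wild type (-5.06 percentage points, no overlap, exact p = 0.1). Pfkp made up 42.1 ± 0.959% in the EMT6 knockout and 38.8 ± 0.418% in EMT6 wild type (SD, n = 3 each; exact p = 0.1), so that Pfkp led in the knockout and Pfkl in wild type. In MDA-MB-231, PFKL made up 5.78, 5.06 and 5.78% in the knockout and 6.75, 6.51 and 8.87% in wild type (-1.83 percentage points, and -1.09 without wild-type replicate 3; exact p = 0.1). PFKM made up 11.002, 15.1 and 16.05% in the MDA-MB-231 knockout and 9.98, 10.2 and 10.3% in wild type, also with no overlap (exact p = 0.1). The PFKP share overlapped between groups, at 80.4 ± 2.57% in the MDA-MB-231 knockout and 82.5 ± 1.4% in wild type (exact p = 0.2). Summed phosphofructokinase-1 TPM was 98.4 ± 5.27 in the EMT6 knockout and 132.8 ± 2.29 in EMT6 wild type (exact p = 0.1; log2 ratio of means -0.43, and -0.18 under median-ratio scaling), and 241.8 ± 11.3 in the MDA-MB-231 knockout and 266.5 ± 23.2 in MDA-MB-231 wild type (exact p = 0.2).

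SLC2A1 supplied most of the transporter pair in both lines, and its share was higher in every knockout library than in any wild-type library of its line. It was 97.5, 97.1 and 97.03% in EMT6 knockout libraries and 95.5, 96.8 and 95.6% in EMT6 wild type. In MDA-MB-231 it was 91.4, 93.3 and 90.04% in the knockout and 85.4, 87.2 and 86.4% in wild type. Neither line showed overlap (exact p = 0.1 each). The EMT6 share was not recomputed with the length trend removed, where log2 fold changes were -0.42 for Slc2a1 and -0.26 for Slc2a3. The direction of that share there is not known. Summed transporter TPM was 27.6 ± 1.49 in the EMT6 knockout and 42.8 ± 0.737 in EMT6 wild type, and 39.9 ± 3.48 in the MDA-MB-231 knockout and 47.3 ± 3.13 in MDA-MB-231 wild type (exact p = 0.1 each).

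**Figure D3:**
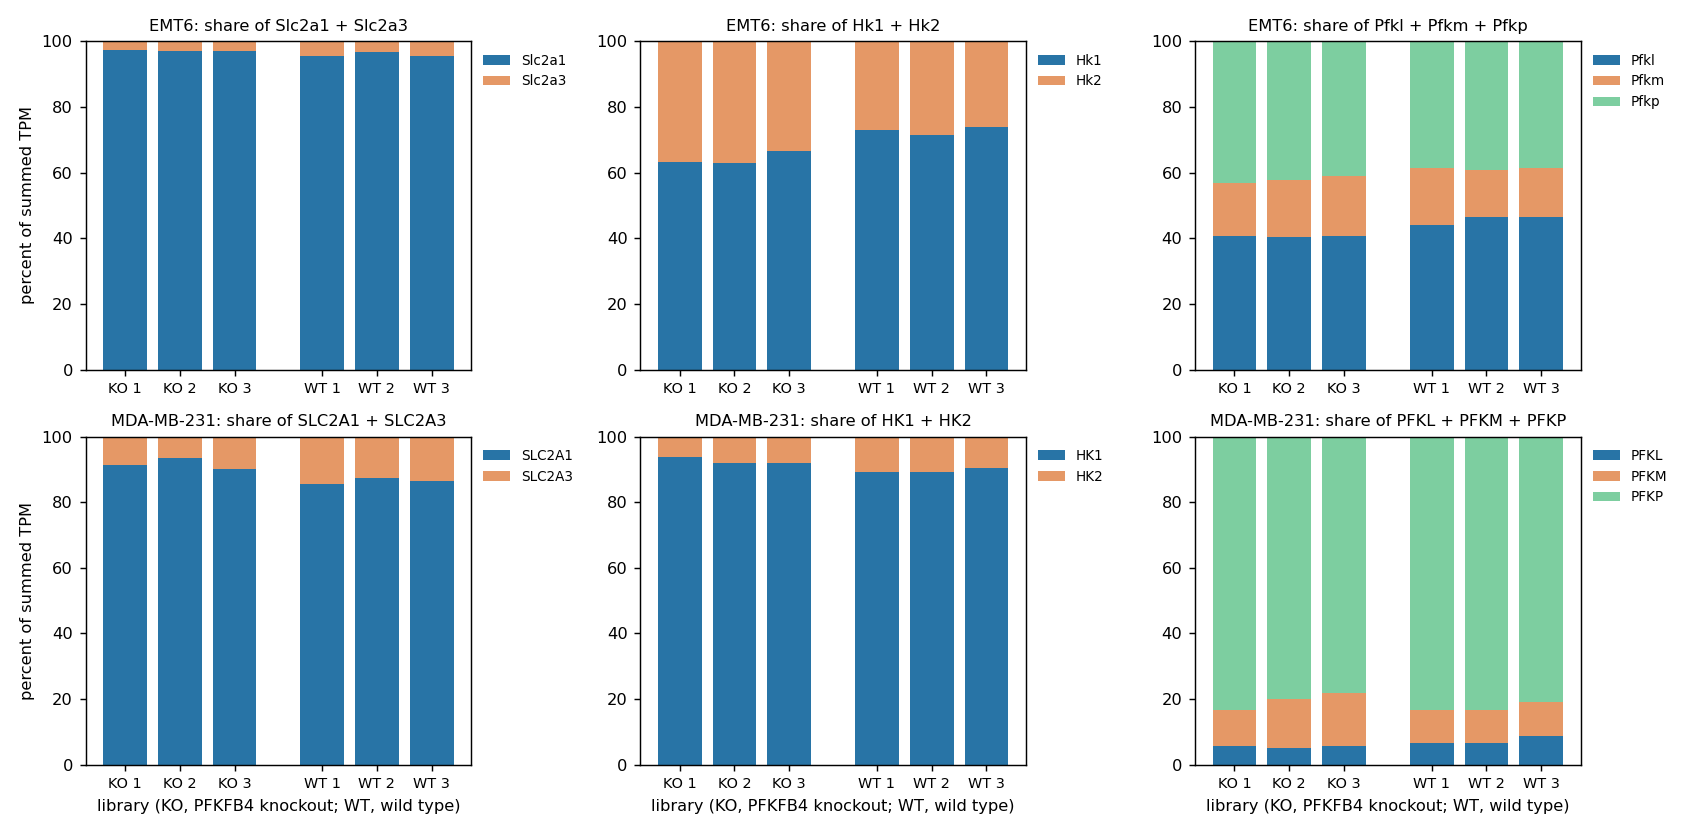
Share of each isoform in the summed TPM of its family, in percent, for every library of EMT6 (top) and MDA-MB-231 (bottom); KO bars are PFKFB4-knockout libraries and WT bars wild-type libraries. The Hk2 segment is taller in EMT6 knockout bars (33.4 to 37.2%) than in EMT6 wild-type bars (25.98 to 28.5%), and the HK2 segment shorter in MDA-MB-231 knockout bars (6.19 to 8.05%) than in MDA-MB-231 wild-type bars (9.65 to 10.9%).

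Enzymes that act on the phosphofructokinase-1 activator, or oppose the phosphofructokinase-1 step, were mostly lower in EMT6 in TPM where tested, but not with the length trend removed. Of 7 such genes, 5 passed the filter, 4 were called lower and 0 higher by limma at an adjusted p of 0.05, 1 was called lower on the median-ratio scale, and 0 lower and 1 higher with the length trend removed. Among all tested genes, 42.3% were called lower and 14.5% higher in TPM, and 24.8% lower and 27.0% higher on the median-ratio scale. With the length trend removed, 3588 of 13487 tested genes were called lower and 3123 higher. The median log2 fold change of the 5 genes was -0.45, beside -0.21 over all tested genes. That median is the value of Pfkfb4 itself. Pfkfb1 was at 2.91 ± 0.146 TPM in the knockout and 4.35 ± 0.543 TPM in wild type (adjusted p = 0.00875, and 0.0509 on the median-ratio scale), and Pfkfb2 at 2.72 ± 0.502 TPM in the knockout and 4.82 ± 0.748 TPM in wild type (adjusted p = 0.0095). Pfkfb3, whose product has the highest kinase to phosphatase ratio of the family, was at 5.8 ± 0.418 TPM in the knockout and 6.18 ± 0.515 TPM in wild type (adjusted p = 0.456). Fbp1 and Fbp2, which reverse the phosphofructokinase-1 step in gluconeogenesis, were listed at 0 in every library.

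Further along the pathway in EMT6, most enzymes were not called in TPM. Of 14 genes of lower glycolysis and lactate handling, 13 passed the filter, with 1 higher and 4 lower by limma and a median log2 fold change of -0.03, and 8 higher and 3 lower on the median-ratio scale (median 0.22). With the length trend removed, 4 were higher and 3 lower. The shares of all tested genes were 14.5% higher and 42.3% lower in TPM, and 27.0% higher and 24.8% lower on the median-ratio scale. With the length trend removed, 3123 of 13487 tested genes were called higher and 3588 lower. Pgk1, which makes ATP in lower glycolysis, was higher, at 592 ± 26.3 TPM in the knockout and 482 ± 23.2 TPM in wild type (adjusted p = 0.00477). The lactate exporter Slc16a3 was lower, at 51.8 ± 2.22 TPM in the knockout and 85.7 ± 4.21 TPM in wild type (adjusted p = 0.00035), as was the enolase Eno2, at 2.78 ± 0.275 TPM in the knockout and 5.87 ± 0.407 TPM in wild type (adjusted p = 0.000746). Of 13 genes at the branches from glucose phosphate and fructose phosphate, 11 passed the filter, with 3 higher and 3 lower in TPM (median -0.08), beside those same shares of all tested genes, 5 higher and 2 lower on the median-ratio scale, and 5 higher and 3 lower with the length trend removed. Ugp2, which makes UDP-glucose, stood at 43.7 ± 1.09 TPM in the knockout and 28.2 ± 1.19 TPM in wild type (adjusted p = 0.000395). Sord, of the polyol pathway, stood at 30.7 ± 1.4 TPM in the knockout and 22.3 ± 0.498 TPM in wild type (adjusted p = 0.00119). The glycogen synthase Gys1 (-0.50, adjusted p = 0.00202) and G6pdx, which opens the pentose phosphate pathway (-0.37, adjusted p = 0.00247), were lower, and G6pdx was not called on the median-ratio scale (-0.12, adjusted p = 0.0848).

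Among known regulators of these genes, Txnip rose in EMT6 knockout cells. Of 15 listed, 11 passed the filter, with 1 higher and 6 lower by limma (median -0.33). The counts were 3 higher and 3 lower on the median-ratio scale, and 3 higher and 4 lower with the length trend removed. Egln3 is part of the median and of the lower counts in TPM and on the median-ratio scale. Its place there is set by the filter, which it passed through wild type alone. Among all tested genes, 14.5% were called higher and 42.3% lower in TPM, and 27.0% higher and 24.8% lower on the median-ratio scale. With the length trend removed, 3123 of 13487 tested genes were called higher and 3588 lower. Txnip, which promotes removal of SLC2A1 from the cell surface, was at 22.7, 24.5 and 27.2 TPM in knockout libraries and 13.7, 14.8 and 12.5 TPM in wild-type libraries (0.81 ± 0.09, SE; adjusted p = 0.00108). Egln3, a prolyl hydroxylase and itself a HIF target, was at 0.0814, 0.0907 and 0.0503 TPM in the knockout and 5.75, 5.66 and 5.68 TPM in wild type. It passed the filter through its wild-type libraries alone, so these levels are given without a test. The kinase Akt1, which acts on glucose uptake and on hexokinase, was at 123 ± 9.19 TPM in the knockout and 181 ± 8.94 TPM in wild type (adjusted p = 0.00145). Hif1a, named after its value was seen, stood at 19.1, 19.3 and 14.9 TPM in the knockout and 48.5, 40.5 and 35.1 TPM in wild type (-1.17 ± 0.15, adjusted p = 0.00156). Whether these changes have a part in those of Slc2a1 or Hk2 was not tested.

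**Figure D4:**
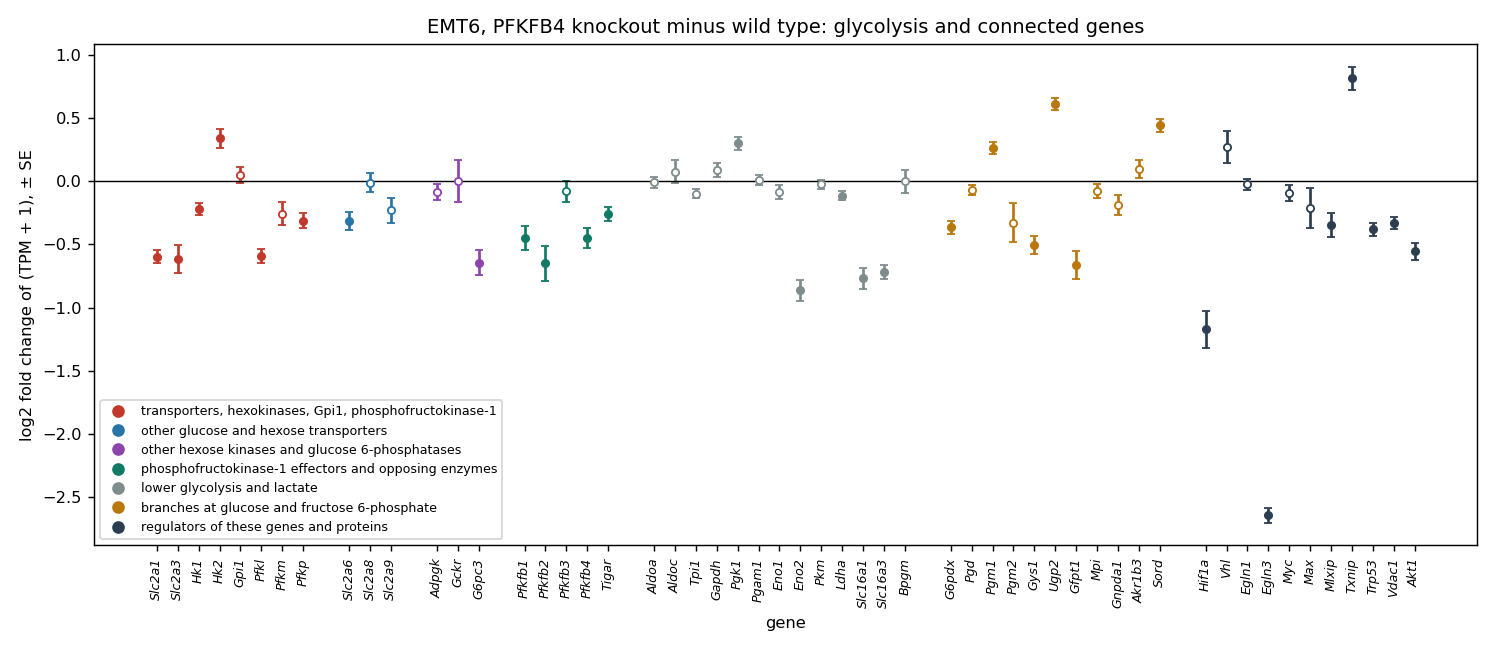
Log2 fold change of TPM + 1 in EMT6, knockout minus wild type, with SE, for each gene of the 8 and of the 6 pathway lists that passed the filter on low values (cell type markers are not plotted), coloured by list; filled points have an adjusted p under 0.05. The lower glycolysis genes have a median of -0.03, with Eno2 lowest among them at -0.86. Egln3 lies lowest of the plotted genes at -2.64. It passed the filter through wild type alone, so its filled point is not read as a test result.

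The genes whose pattern over the 6 EMT6 libraries was nearest to that of Slc2a1, by the root mean square difference of centred log2(TPM + 1) among 6588 genes averaging 10 TPM or more, were Hspa5 (0.0209), mt-Cytb (0.0214) and Xbp1 (0.0232). Those nearest to Hk2 were Tm4sf1 (0.0284), Maff (0.0293) and Glrx (0.0353). Hspa5, an endoplasmic reticulum chaperone, stood at 272, 296 and 269.5 TPM in knockout libraries and 424, 420 and 428 TPM in wild-type libraries. Tm4sf1, a membrane protein, stood at 413, 409.8 and 369 TPM in the knockout and 316, 329 and 315 TPM in wild type. Human identifiers are not paired with names in the tables used, so no such genes are named for MDA-MB-231.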

How the data were processed

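Poly(A) RNA of PFKFB4-knockout and wild-type EMT6 and MDA-MB-231 cells was sequenced from single-end libraries, 3 per group. The submitters' processing notes list CASAVA (version 1.8.2), TopHat2 (2.1.1), featureCounts and Subread (1.6.4), and name mm10 and GRCh38.p7 as builds; settings and strand use are not known here. The authors deposited 1 table per line without naming its unit, and the values were read as TPM because each column sums to 1000000 and the smallest values differ with gene length. Knockout columns carry codes that no label explains and were assigned by elimination, since the remaining 3 columns in either table are named wild type.

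Within each line, genes that reached 0.5 TPM in at least 3 of 6 libraries were tested on log2(TPM + 1), a scale that understates changes of low genes. The test was limma (version 3.58.1, R 4.3.3) with a trend of variance on mean level, and Benjamini-Hochberg adjustment ran over all tested genes (threshold 0.05). It was checked on simulated data in which 200 genes were changed. At 1.25-fold, 16% of changed genes were recovered in EMT6 and 2% in MDA-MB-231. At 1.5-fold these were 62% and 28%, and at 2-fold 78% and 72%. False calls were 6 of 128 in EMT6 and 2 of 102 in MDA-MB-231. A gene that was not called is therefore not shown to be unchanged. Far more genes were called in the data than were changed in the simulation, with 7659 for EMT6 and 3065 for the human line. The adjusted p of a gene depends on how many others have small p-values. Recovery in the data may thus differ from the simulated rates, most of all for EMT6, and was not measured. Shares were tested with scipy 1.17.1. Means are given ± SD. Mouse symbols, positions and exon lengths are those of GENCODE M21 (GRCm38), and where 2 identifiers shared a symbol the more abundant was used. The 8 human genes were matched by the identifiers that define the set, and other human genes were not named.

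The members and lists were chosen with earlier results of these data known. All 8 genes were named in each line, together with the PFKFB genes and, from each other list, the called genes with the 2 smallest adjusted p in each direction. Alternatives were no trend, median-ratio scaling, no filter, a filter of 1 TPM, a pseudocount of 0.1, omission of single libraries, a replicate block and, in EMT6, removal of a lowess trend on exon length.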

Additional observations from a re-analysis of the deposited data

Results flagged for a closer look

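HK1 drew attention because all knockout libraries moved one way in EMT6 and all moved the opposite way in MDA-MB-231. Its log2 fold change in TPM was -0.22 in EMT6 and 0.64 in MDA-MB-231, and the EMT6 value was 0.02 on the median-ratio scale and 0.17 with the length trend removed. The HK2 share of HK1 + HK2 was also opposite, with 8.7 percentage points more in the EMT6 knockout than in EMT6 wild type and a difference of -3.08 percentage points in MDA-MB-231. The difference between the lines was not tested for either measure. With 3 libraries a group, no group was large enough for a check of single outlying libraries.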

How the results depend on the processing

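In EMT6, Slc2a1, Pfkl and Hk2 kept their direction and call under all 13 alternatives, with log2 fold changes of -0.64 to -0.36, -0.64 to -0.26 and 0.30 to 0.65. In MDA-MB-231, HK1 did so under all 12 (0.60 to 0.71). Median-ratio scaling called 3644 EMT6 genes higher and 3349 lower, against 1954 and 5705 in TPM, and 2 and 3 of the 8 genes, against 1 and 5. Removal of the length trend called 3123 higher and 3588 lower, and 2 and 2 of the 8. Hk1 reversed under both (0.0214 and 0.17), and Pfkp (0.15) with the length trend removed. Under median-ratio scaling the log2 ratio of mean summed TPM was 0.21 for EMT6 hexokinases, against -0.04 in TPM, -0.18 for phosphofructokinase-1, against -0.43, and -0.39 for the transporters, against -0.63. In MDA-MB-231, the number of the 8 genes called lower was 1 without a trend, 1 under median-ratio scaling and 1 with a replicate block, against 2, and HK2 was at -0.01004 without knockout replicate 3. Leaving out 1 library gave 515 to 1071 human genes higher, 708 to 1458 lower, and 1 to 2 and 0 to 2 of the 8. The cause of these changes was not tested. The lowest counts came without MDA-MB-231 wild-type replicate 1. Leaving out any library but knockout replicate 1 moved the number of higher human genes by over 1.5 times, and none of the 8 genes was called lower without wild-type replicate 1, wild-type replicate 3 or knockout replicate 2. The replicate block called 534 human genes higher and 1030 lower, against 1220 and 1845, and in EMT6 1629 higher and 5022 lower. Same-numbered libraries had deviations from their group means that correlated at -0.0175 to 0.0728 in EMT6, and in MDA-MB-231 at -0.127 to 0.114, so the numbers were not taken to pair them. The knockout library correlated best with its own number in 2 of 3 cases in EMT6 and 1 of 3 in MDA-MB-231. The differences in HK2, PFKL, PFKM, PFKP and SLC2A1 shares kept their sign when any library was left out. These shares were not recomputed with the length trend removed. The exon length correction was not run for MDA-MB-231, whose exon lengths were not used here. TPM keeps no depth, so counting error cannot be given.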
